A study of Saccharomyces cerevisiae with 12 samples.

Results

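The TCA cycle and the mitochondrial respiratory chain were followed through 48 nuclear genes, of 6400 genes named in the count tables, in yeast strains that lack the *TUP1* and *CYC8* co-repressor genes. The members were taken by name and function, with earlier results of these data known. They were 12 TCA cycle enzymes, 4 subunits of complex II, 2 NADH dehydrogenases, 9 subunits of complex III and 1 cytochrome c. The rest were 8 subunits of complex IV, 11 subunits of ATP synthase and 1 phosphate carrier. All 48 were counted, passed the filter on low counts in each comparison, and matched the R64 annotation. No member overlapped another annotated gene, and at most 1.67% of the 31-base stretches of a member (*CYC1*) occurred elsewhere in the genome.

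The TCA cycle oxidises acetyl-CoA in the mitochondrial matrix and passes the electrons to NADH and to succinate dehydrogenase. The chain hands those electrons from the NADH dehydrogenases and complex II through ubiquinone, complex III, cytochrome c and complex IV to oxygen, and the proton gradient this builds drives ATP synthase. Budding yeast has no proton-pumping complex I, ferments glucose even in air, and is known to hold many of these genes at a low level while glucose lasts. The Hap2, Hap3, Hap4 and Hap5 complex is the best-known activator of the nuclear genes of the chain, and Tup1-Cyc8 is a general co-repressor that DNA-binding proteins bring to promoters.

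The RNA sequenced came from 4 *S. cerevisiae* strains, each with 3 biological replicates and all derived from BY4741, a MATa laboratory strain of the S288c background that carries *his3*Δ1, *leu2*Δ0, *met15*Δ0 and *ura3*Δ0. The *tup1* strain carried *tup1*Δ::KanMX4, the *cyc8* strain *cyc8*Δ::KanMX4 and the *tup1 cyc8* strain *tup1*Δ::KanMX4 with *cyc8*Δ::URA3, and the wt strain had both genes intact. All cultures grew in rich YPD medium with 2% glucose at 30°C to an optical density of 0.6 to 0.8, so every strain was sampled in glucose and no respiratory medium was used. The mutants divided more slowly than wt by the study's own account, and growth rate cannot be told apart from genotype in these libraries. Each mutant is 1 strain, so the replicates share whatever else that strain carries.

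The libraries held 12643361 to 17898833 counts in named genes. *TUP1* counts, per counts in named genes, were at 3.16% to 4.05% of the wt level in *tup1* libraries and at 2.92% to 3.44% in *tup1 cyc8* libraries, and *CYC8* counts at 3.27% to 3.72% in *cyc8* libraries. By the same measure, *CYC8* still had 30.5% to 35.2% of the wt level in *tup1 cyc8* libraries. *URA3*, the marker that replaced it, had 411 to 687 counts there. MATa markers were expressed in all 12 libraries (summed level 603 to 1570 CPM) and MATalpha markers were near 0 (2.11 to 5.76 CPM). The MATa markers were not at equal levels in all strains. In *cyc8*, *STE2*, *MFA1* and *BAR1* averaged 164, 27.1 and 14.6 CPM, against 499.7, 111 and 164.5 CPM in wt. *MFA2* averaged 447 CPM in *cyc8* and 431 CPM in wt. Levels below are CPM, a gene's counts as a share of its library's total on a fixed scale, with libraries scaled to one another by TMM factors, and a change is the log2 fold change over wt from edgeR's quasi-likelihood test, called where the p adjusted by Benjamini and Hochberg's method across all genes tested was 0.01 or lower. Because levels are relative to all counts of a library, a change in total mRNA per cell was not seen, and all values are mRNA levels and not protein or respiration.

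Most genes of the chain were higher in *cyc8* and in *tup1 cyc8* than in wt. Of the 48 members, 36 rose and none fell in *cyc8*, where 16.3% of all 5954 genes tested rose and 5.66% fell, and 35 of the 36 rose at least 2-fold (12.5% of all). In *tup1 cyc8*, 42 rose and none fell, where 21% of all 5942 genes tested rose and 13.6% fell, and 34 rose at least 2-fold (13.9% of all). In *tup1*, 7 rose and none fell, where 10.5% of all 5927 genes tested rose and 3.73% fell, and 4 rose at least 2-fold (7.27% of all). The median log2 fold change of the members was 0.63 in *tup1*, 1.37 in *cyc8* and 1.21 in the double mutant, beside medians of -0.03 over all genes tested in each comparison. The members called were 14.6%, 75% and 87.5% of the list in *tup1*, *cyc8* and *tup1 cyc8*, so in *tup1* their share was near that of all genes. None of the 48 was lower at an unadjusted p of 0.05 in any of the 3 comparisons by the same edgeR test, and DESeq2 called 0 lower in each.

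**Figure D1:**
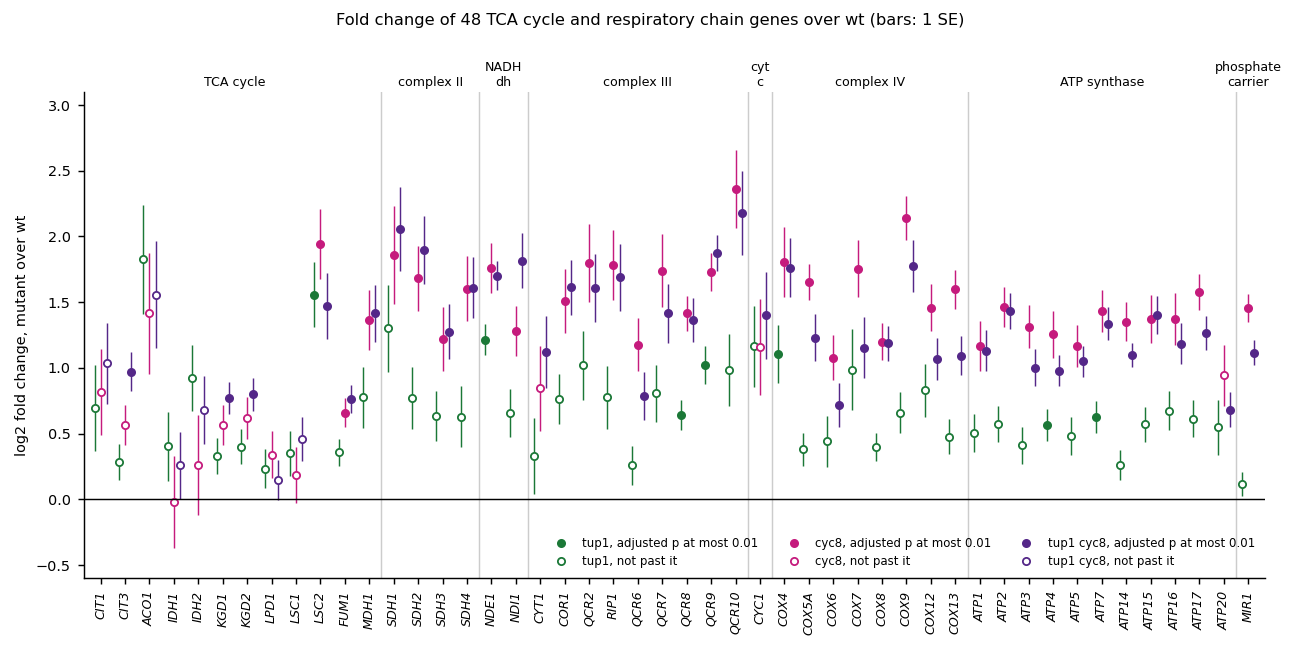
The log2 fold change over wt (vertical axis) of each of the 48 genes, ordered by complex, in *tup1*, *cyc8* and *tup1 cyc8*, with bars of 1 standard error and filled points at an adjusted p of at most 0.01 (edgeR quasi-likelihood test). In *cyc8* 36 points are filled and in *tup1 cyc8* 42, against 7 in *tup1*, and 6 of the 12 TCA cycle points in *tup1 cyc8* are open.

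The number of members called in *tup1* depended on the libraries kept and on the settings. The wt library of replicate 3 had the highest level of the wt libraries in 45 of the 48 genes, beside 43.14% of all genes, and exceeded the mean of the other wt libraries by a median log2 ratio of 0.49. Without it, 38 members rose in *tup1* (13.8% of all genes tested rose), 40 in *cyc8* (14.3%) and 47 in *tup1 cyc8* (22.5%), and the members' medians were 0.81, 1.54 and 1.44. With all libraries kept, 38 of the 48 genes had every *tup1* library above every wt library (22% of all genes tested did), 42 had so in *cyc8* (28.4%) and 45 in *tup1 cyc8* (30.5%). With wt replicate 3 left out these numbers were 48 (29.7%), 47 (33.1%) and 48 (35.8%). Leaving out any other library of the *tup1* comparison gave 2 or 3 members: 3 without *tup1* replicate 1, wt replicate 1 or wt replicate 2, and 2 without *tup1* replicate 2 or *tup1* replicate 3. The library *cyc8* replicate 1 also stood apart, being the highest of its strain in 37 of the 48 genes (43.37% of all genes) with a median log2 ratio of 0.31, but the number of members called in *cyc8* was 36 without it too. In *tup1 cyc8*, replicate 1 was the highest of its strain in 34 of the 48 genes (37.31% of all genes), at a smaller median log2 ratio of 0.17. Its complex IV sum was 1040 CPM, against 765 and 770 CPM in the other *tup1 cyc8* libraries. What set these libraries apart was not tested. Since most members were highest in wt replicate 3, leaving it out lowers their wt mean. Calls gained without it, here and below, are not independent support for a rise.

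**Figure D2:**
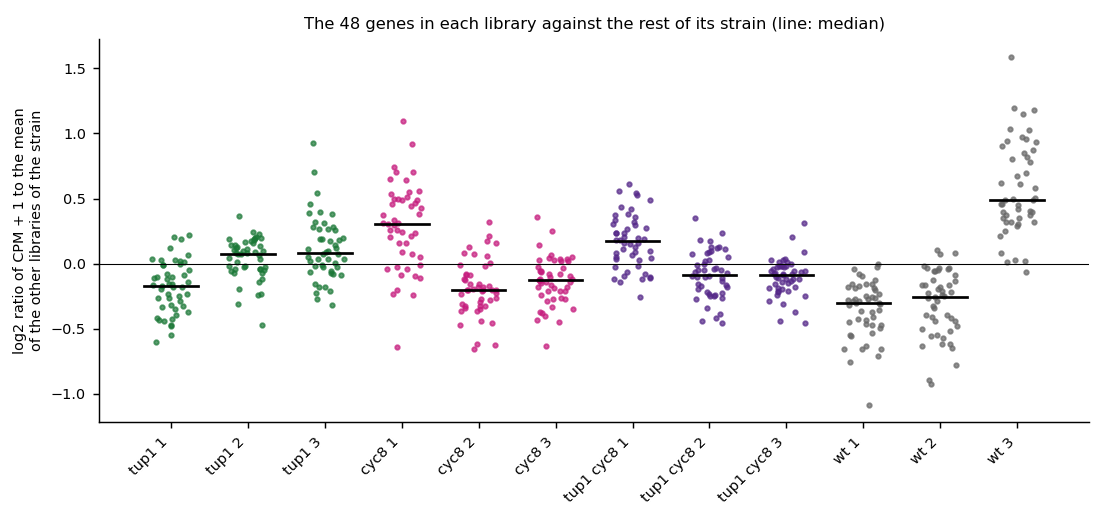
Each point is 1 of the 48 genes, and the vertical axis is the log2 ratio of its CPM + 1 in the named library to the mean of the other libraries of that strain. The line at the median stands at 0.49 for wt replicate 3 and at 0.31 for *cyc8* replicate 1, and the other 10 medians lie between -0.30 and 0.17.

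The choice of scaling moved all genes together. With library sizes alone in place of TMM factors, the median over all genes tested was -0.16 in *tup1*, -0.38 in *cyc8* and -0.50 in the double mutant, and 3, 30 and 30 members rose (8.67%, 12.2% and 12.8% of all genes tested), of which 2, 25 and 12 rose at least 2-fold (6.68%, 9.69% and 9.36%). The members' medians were then 0.50, 1.03 and 0.73, above those of all genes in each mutant.

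Most members shared wt as the lowest strain, while the highest strain differed among them. The mean level was lowest in wt for 47 of the 48 genes, *IDH1* being lowest in *cyc8*, and highest in *cyc8* for 29, in *tup1 cyc8* for 16 and in *tup1* for 3. All 36 members that rose in *cyc8* also rose in *tup1 cyc8*, and both comparisons use the same wt libraries. The 7 that rose in all 3 mutants were *LSC2*, *NDE1*, *QCR8*, *QCR9*, *COX4*, *ATP4* and *ATP7*. Another 6, *CIT3*, *KGD1*, *KGD2*, *CYT1*, *CYC1* and *ATP20*, rose in *tup1 cyc8* and passed the test in neither single mutant, and the 6 that passed in none, *CIT1*, *ACO1*, *IDH1*, *IDH2*, *LPD1* and *LSC1*, were all TCA cycle genes.

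Summed over the members of each complex, the level in *cyc8* was 2.57 to 3.25 times that of wt for complexes II, III and IV, the NADH dehydrogenases, ATP synthase and the phosphate carrier, and 1.75 times for the TCA cycle. In *tup1 cyc8* the same 6 groups stood at 2.15 to 3.27 times wt and the TCA cycle at 1.91 times. Cytochrome c, a single gene, stood at 2.27, 2.23 and 2.62 times wt in *tup1*, *cyc8* and *tup1 cyc8*, and at 3.25, 3.20 and 3.76 times without wt replicate 3. In *tup1* the NADH dehydrogenases stood at 2.24 times wt, the TCA cycle at 1.95 times, complexes II, III and IV at 1.70, 1.72 and 1.51 times, ATP synthase at 1.47 times and the phosphate carrier at 1.10 times. The sum over all 48 genes was 7760 ± 523 CPM in *tup1*, 11020 ± 1225 CPM in *cyc8* and 10660 ± 696 CPM in *tup1 cyc8*, against 4567 ± 1085 CPM in wt (SD, n = 3 each). Without wt replicate 3 it was 1.97, 2.80 and 2.70 times wt in *tup1*, *cyc8* and *tup1 cyc8*, beside 1.70, 2.41 and 2.33 times with it. These sums describe the groups and carry no test.

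**Figure D3:**
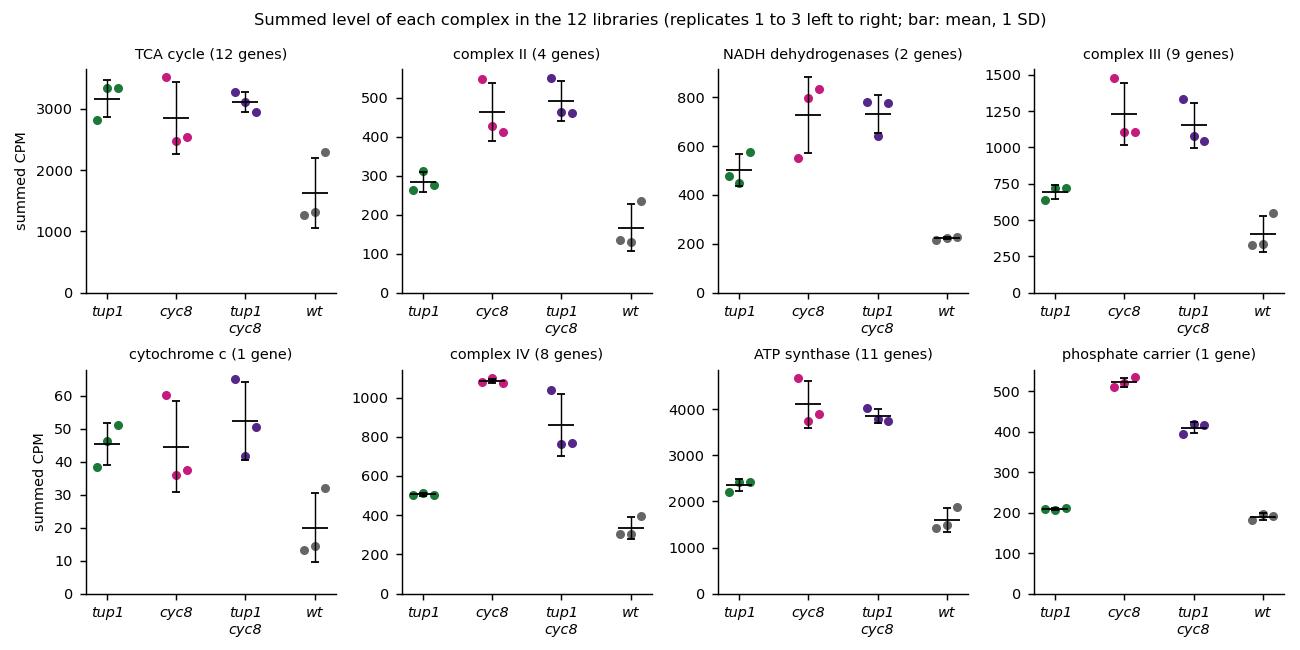
Summed CPM (vertical axis, from 0) of each group of genes in the 12 libraries, *tup1*, *cyc8*, *tup1 cyc8* and wt from left to right, with the mean and 1 SD. In the TCA cycle and cytochrome c the 3 mutants overlap one another, while for complex IV the *cyc8* libraries (1076 to 1098 CPM) lie above the *tup1* libraries (501 to 516 CPM) and those above wt (303 to 398 CPM).

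Promoters are shown for 4 members, *QCR10* and *COX9* for the largest increases in *cyc8*, *MIR1* for its difference between *cyc8* and *tup1*, and *LSC2* as the only TCA cycle gene called in all 3 mutants. Each window runs from 250 bases before to 50 bases after the first base of the start codon, 5′ to 3′ on the strand of the gene, from the RefSeq R64 genome, and capitals mark CCAAT, the core bound by the Hap2, Hap3, Hap4 and Hap5 complex, or its reverse complement. The *QCR10* window lies at chrVIII:107576-107875 (plus strand), that of *COX9* at chrIV:334347-334646 (minus strand), that of *MIR1* at chrX:578141-578440 (minus strand) and that of *LSC2* at chrVII:979270-979569 (minus strand).
QCR10: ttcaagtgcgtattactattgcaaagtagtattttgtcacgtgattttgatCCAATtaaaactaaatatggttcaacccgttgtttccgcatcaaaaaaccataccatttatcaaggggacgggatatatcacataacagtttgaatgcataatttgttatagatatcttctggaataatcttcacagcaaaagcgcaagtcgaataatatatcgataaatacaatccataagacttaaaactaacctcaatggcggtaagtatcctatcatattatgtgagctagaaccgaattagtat
COX9: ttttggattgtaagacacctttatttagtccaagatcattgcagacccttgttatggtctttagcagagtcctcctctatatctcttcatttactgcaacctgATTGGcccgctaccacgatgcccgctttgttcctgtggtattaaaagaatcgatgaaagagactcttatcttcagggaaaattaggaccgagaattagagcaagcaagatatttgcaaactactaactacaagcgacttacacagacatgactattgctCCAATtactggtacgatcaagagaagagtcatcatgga
MIR1: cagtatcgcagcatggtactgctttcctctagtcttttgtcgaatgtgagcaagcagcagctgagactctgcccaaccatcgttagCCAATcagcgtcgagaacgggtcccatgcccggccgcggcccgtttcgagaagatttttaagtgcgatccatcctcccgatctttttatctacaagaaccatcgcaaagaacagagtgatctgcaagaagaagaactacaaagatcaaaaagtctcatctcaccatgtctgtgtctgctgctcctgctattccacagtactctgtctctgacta
LSC2: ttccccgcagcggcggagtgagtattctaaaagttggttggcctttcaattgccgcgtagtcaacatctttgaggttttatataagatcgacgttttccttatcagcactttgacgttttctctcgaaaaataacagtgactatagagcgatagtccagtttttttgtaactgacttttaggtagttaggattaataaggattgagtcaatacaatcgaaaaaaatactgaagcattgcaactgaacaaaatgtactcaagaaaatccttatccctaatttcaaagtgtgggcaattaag

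In these windows CCAAT stood at position -199 from the start codon of *QCR10*, at -147 and again inside the coding sequence of *COX9*, and at -164 in *MIR1*, and it was not in the window of *LSC2*. Counting either strand and overlapping matches, CCAAT was in the windows of 38 of the 48 members (79.2%), beside 43.3% of the 6001 windows of nuclear protein-coding genes. By group it was in 7 of 12 TCA cycle windows, in all 4 of complex II and both of the NADH dehydrogenases, in 7 of 9 of complex III, in 7 of 8 of complex IV and in 10 of 11 of ATP synthase, and not in that of *CYC1*. The longer form ACCAAT, each match of which is also a CCAAT match, was in 17 member windows (35.4%), beside 16.2% of all windows. In *cyc8* the 38 members with CCAAT had a median log2 fold change of 1.41 (range -0.02 to 2.36) and the 10 without it 1.00 (0.18 to 1.94). In *tup1 cyc8* the medians were 1.25 and 1.13, and in *tup1* 0.63 and 0.60. For the 17 members with ACCAAT and the 31 without it, the medians were 1.37 and 1.37 in *cyc8*. They were 1.19 and 1.23 in *tup1 cyc8*, and 0.57 and 0.64 in *tup1*. The TCA cycle genes *CIT1*, *KGD1*, *KGD2*, *LSC1* and *LSC2* were among those without CCAAT, so motif and group were not separated here. A match of these letters is a description of the window and not a binding site.

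The TCA cycle members were the least uniform group. In *cyc8* 3 of 12 rose (*LSC2*, *FUM1* and *MDH1*), in *tup1 cyc8* 6 of 12 (these and *CIT3*, *KGD1* and *KGD2*), and in *tup1* only *LSC2*. Their median log2 fold change was 0.40 in *tup1*, 0.59 in *cyc8* and 0.79 in the double mutant. Without wt replicate 3, 9, 5 and 11 of the 12 rose in *tup1*, *cyc8* and *tup1 cyc8*.

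*ACO1*, aconitase, the most abundant of the 12 per kilobase in the mutants (*IDH2* was in wt), had 1018, 1363 and 1354 CPM in *tup1*, 1262, 735 and 772 CPM in *cyc8* and 1100, 988 and 947 CPM in *tup1 cyc8*, against 198, 216 and 625 CPM in wt. Each mutant library was above each wt library, but wt replicate 3 came near the lowest *cyc8* library, and *cyc8* replicate 1 was far above the other *cyc8* libraries. The log2 fold changes of *ACO1* were 1.83 ± 0.42 (SE) in *tup1*, 1.41 ± 0.46 in *cyc8* and 1.56 ± 0.41 in the double mutant, with adjusted p of 0.0135, 0.0422 and 0.0131 by edgeR, so none passed, whereas without wt replicate 3 all 3 did, at 2.58, 2.16 and 2.30 with adjusted p of 5.37e-06, 0.0018 and 3.16e-06.

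*LSC2*, the beta subunit of succinyl-CoA ligase, had 144, 137 and 144 CPM in *tup1*, 174, 188 and 183 CPM in *cyc8* and 123, 141 and 127 CPM in *tup1 cyc8*, against 37.6, 34.6 and 69.98 CPM in wt. Its *tup1* and *tup1 cyc8* libraries overlapped, the *cyc8* libraries lay above them, and all 9 lay above the wt libraries. *LSC2* rose by 1.56 ± 0.24 in *tup1*, 1.94 ± 0.27 in *cyc8* and 1.47 ± 0.25 in the double mutant on the log2 scale (± SE), with adjusted p of 0.0021, 0.00106 and 0.00182 by edgeR. Its partner *LSC1*, the alpha subunit, had log2 fold changes of 0.35 ± 0.17, 0.18 ± 0.21 and 0.46 ± 0.16 in the same order of strains and passed in none.

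*MDH1*, mitochondrial malate dehydrogenase, had 61.3, 79.6 and 85.96 CPM in *tup1*, 124, 102 and 111 CPM in *cyc8* and 108, 122 and 116 CPM in *tup1 cyc8*, against 34.9, 35.04 and 60.9 CPM in wt. All mutant libraries exceeded wt, and those of *cyc8* and *tup1 cyc8* exceeded those of *tup1*. It rose by 1.36 ± 0.23 in *cyc8* and 1.41 ± 0.21 in *tup1 cyc8* on the log2 scale (± SE) with edgeR adjusted p of 0.00298 and 0.000981, and its value in *tup1*, 0.78 ± 0.23, did not pass (0.0399).

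Of the remaining TCA cycle members, *FUM1* (fumarase) rose by 0.66 ± 0.11 in *cyc8* and 0.76 ± 0.11 in *tup1 cyc8*, less than 2-fold in both. *KGD1* and *KGD2*, subunits of the 2-oxoglutarate dehydrogenase complex, rose in *tup1 cyc8* by 0.77 ± 0.12 and 0.80 ± 0.13. *CIT3*, which encodes a mitochondrial citrate and methylcitrate synthase and was the lowest of the 12 at 5.74, 6.88, 9.01 and 4.64 CPM per kilobase in the order *tup1*, *cyc8*, *tup1 cyc8* and wt, rose there by 0.97 ± 0.15. *CIT1*, the main mitochondrial citrate synthase, had 0.70 ± 0.33, 0.81 ± 0.33 and 1.04 ± 0.31 in *tup1*, *cyc8* and *tup1 cyc8* and passed in none, its wt libraries holding 56.7, 53.1 and 127 CPM. The subunits of isocitrate dehydrogenase, *IDH1* and *IDH2*, had -0.02 ± 0.35 and 0.26 ± 0.38 in *cyc8*, where replicate 1 alone stood high (128 CPM against 64.2 and 70.3 CPM in the other *cyc8* libraries for *IDH1*), and 0.40 ± 0.26 and 0.93 ± 0.25 in *tup1*. *LPD1*, the dihydrolipoamide dehydrogenase shared with the pyruvate dehydrogenase complex, had between 0.14 and 0.34 in the 3 mutants and passed in none.

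Complex II, succinate dehydrogenase, links the cycle to the chain, and its 4 subunits rose together in *cyc8* and in *tup1 cyc8*, each at least 2-fold. None of the 4 passed in *tup1*, where their log2 fold changes ran from 0.63 to 1.30, and all 4 did without wt replicate 3.

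*SDH1*, the flavoprotein subunit, had 38.6, 56.7 and 48.8 CPM in *tup1*, 92.4, 55.8 and 61.1 CPM in *cyc8* and 85.5, 77.9 and 75.3 CPM in *tup1 cyc8*, against 14.6, 11.9 and 31.2 CPM in wt. *SDH2*, the iron-sulphur subunit, had 42.9, 51.1 and 46.4 CPM in *tup1*, 85.8, 89.3 and 85.5 CPM in *cyc8* and 116, 83.1 and 102 CPM in *tup1 cyc8*, against 21.8, 20.2 and 39.3 CPM in wt. Both were lowest in wt with no overlap, and wt replicate 3 was the highest wt library by a wide margin. *SDH1* had the largest increase of all members but *QCR10* in *tup1 cyc8*, 2.06 ± 0.32 on the log2 scale (± SE, edgeR adjusted p 0.00112), and rose by 1.86 ± 0.37 in *cyc8*. *SDH2* rose by 1.90 ± 0.26 in *tup1 cyc8* and 1.68 ± 0.25 in *cyc8*.

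*SDH3*, a membrane anchor subunit that binds ubiquinone with the next, had 130.3, 141 and 122 CPM in *tup1*, 245, 176 and 162 CPM in *cyc8* and 235, 185 and 181 CPM in *tup1 cyc8*, against 69.98, 68 and 112 CPM in wt. *SDH4*, the other membrane anchor, had 50.8, 63.5 and 59.1 CPM in *tup1*, 125, 108 and 104 CPM in *cyc8* and 115, 118 and 102 CPM in *tup1 cyc8*, against 28.8, 29.1 and 52.97 CPM in wt. For *SDH3* all mutant libraries were above wt, and for *SDH4* 1 *tup1* library lay below wt replicate 3. *SDH3* rose by 1.22 ± 0.24 and 1.27 ± 0.21 and *SDH4* by 1.60 ± 0.25 and 1.61 ± 0.23 in *cyc8* and *tup1 cyc8*.

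The NADH dehydrogenases of yeast are single polypeptides that feed electrons to ubiquinone without pumping protons, *NDE1* from the cytosolic side of the inner membrane and *NDI1* from the matrix. *NDE1*, the external enzyme, had 427, 400.1 and 516 CPM in *tup1*, 469, 709 and 757 CPM in *cyc8* and 656, 545 and 639.6 CPM in *tup1 cyc8*, against 188, 198 and 185 CPM in wt. Here wt replicate 3 did not stand apart, *cyc8* replicate 1 was the lowest *cyc8* library, and every mutant library had 400.1 CPM or more. *NDE1* rose by 1.22 ± 0.12 in *tup1*, 1.76 ± 0.19 in *cyc8* and 1.70 ± 0.11 in the double mutant (± SE), with edgeR adjusted p of 0.000121, 0.000311 and 7.72e-06. *NDI1*, the internal enzyme, had 51.8, 48.9 and 60.4 CPM in *tup1*, 81.3, 86.7 and 76.99 CPM in *cyc8* and 122, 94.7 and 135 CPM in *tup1 cyc8*, against 29.1, 27.7 and 44.01 CPM in wt. The 4 strains formed separate ranges, *tup1 cyc8* highest, and *NDI1* rose by 1.82 ± 0.21 there and by 1.28 ± 0.19 in *cyc8*, while its 0.66 ± 0.18 in *tup1* did not pass (0.0307).

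Complex III, the cytochrome bc1 complex, had 8 of 9 nuclear subunits called in *cyc8*, all 9 in *tup1 cyc8* and 2, *QCR8* and *QCR9*, in *tup1*. Without wt replicate 3 all 9 rose in each mutant. The subunits of this complex differed from one another in level, between 47.8 and 514 CPM per kilobase in *cyc8* and between 26.7 and 159 CPM per kilobase in wt, *CYT1* being the lowest in both strains.

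*QCR10*, a small subunit, had 33.3, 37.9 and 33.7 CPM in *tup1*, 92.8, 88.96 and 87.2 CPM in *cyc8* and 102, 70.3 and 62.4 CPM in *tup1 cyc8*, against 12.3, 13.02 and 26.9 CPM in wt. The *cyc8* libraries were close together, the *tup1* libraries formed a lower range with no overlap, and wt replicates 1 and 2 had less than replicate 3. The increase of *QCR10* was the largest of the 48 in both strains, 2.36 ± 0.29 in *cyc8* and 2.18 ± 0.32 in *tup1 cyc8* (log2 ± SE, edgeR adjusted p 0.000662 and 0.000836), and its 0.99 ± 0.27 in *tup1* did not pass (0.0316).

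*QCR9*, another small subunit, had 45.6, 55.5 and 53.3 CPM in *tup1*, 85.1, 79.9 and 84.2 CPM in *cyc8* and 95.8, 86.9 and 90.3 CPM in *tup1 cyc8*, against 21.4, 23.5 and 30.04 CPM in wt. *QCR8*, a subunit that contacts ubiquinone near cytochrome b, had 66.9, 74.95 and 72.8 CPM in *tup1*, 132, 108 and 122 CPM in *cyc8* and 146, 102 and 99.6 CPM in *tup1 cyc8*, against 40.1, 44.98 and 50.9 CPM in wt. In both genes the groups followed each other without overlap from wt through *tup1* to *cyc8* and *tup1 cyc8*. *QCR9* rose by 1.02 ± 0.14, 1.73 ± 0.14 and 1.88 ± 0.14 and *QCR8* by 0.64 ± 0.11, 1.42 ± 0.14 and 1.36 ± 0.17 in *tup1*, *cyc8* and *tup1 cyc8* (log2 ± SE), all past the test.

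*COR1*, the larger core protein, had 156, 192 and 166 CPM in *tup1*, 359.6, 249.9 and 242 CPM in *cyc8* and 364, 270.1 and 273 CPM in *tup1 cyc8*, against 83.8, 82.1 and 133 CPM in wt. *QCR2*, the other core protein, had 103, 110.3 and 141 CPM in *tup1*, 247, 168 and 183 CPM in *cyc8* and 196, 165 and 159 CPM in *tup1 cyc8*, against 43.6, 43.6 and 84.97 CPM in wt. *RIP1*, the Rieske iron-sulphur protein, had 55.9, 60.03 and 66.05 CPM in *tup1*, 138, 111 and 113 CPM in *cyc8* and 129.7, 99.1 and 107 CPM in *tup1 cyc8*, against 28.5, 25.3 and 51.1 CPM in wt. In all 3 genes the *tup1* libraries lay between wt and the other mutants, with no overlap on either side, and *cyc8* replicate 1 was the highest *cyc8* library. The increases in *cyc8* were 1.51 ± 0.24, 1.80 ± 0.29 and 1.78 ± 0.27 for *COR1*, *QCR2* and *RIP1*, and those in *tup1 cyc8* 1.61 ± 0.21, 1.61 ± 0.26 and 1.69 ± 0.26.

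*QCR7*, a matrix-side subunit, had 102, 109 and 103 CPM in *tup1*, 251, 181 and 159.7 CPM in *cyc8* and 166, 162 and 142 CPM in *tup1 cyc8*, against 47.97, 45.7 and 83.6 CPM in wt. *QCR6*, the acidic hinge subunit, had 51.7, 47.2 and 47.5 CPM in *tup1*, 113, 77.6 and 82.2 CPM in *cyc8* and 81.7, 69.7 and 55.5 CPM in *tup1 cyc8*, against 34.7, 36.04 and 50.04 CPM in wt. *CYT1*, the gene of cytochrome c1, had 25.4, 31.8 and 37.5 CPM in *tup1*, 58.9, 38.2 and 36.4 CPM in *cyc8* and 50.8, 51 and 58.9 CPM in *tup1 cyc8*, against 18.6, 17.8 and 38.1 CPM in wt. *QCR7* separated the strains as *COR1* did, *QCR6* had 2 *tup1* libraries below wt replicate 3, and *CYT1* overlapped wt in *tup1* and in *cyc8*. *QCR7* rose by 1.74 ± 0.28 in *cyc8* and 1.42 ± 0.22 in *tup1 cyc8*, *QCR6* by 1.18 ± 0.20 and, less than 2-fold, by 0.79 ± 0.18, and *CYT1* rose by 1.12 ± 0.27 in *tup1 cyc8*, at an adjusted p of 0.00984 just inside the limit, beside 0.84 ± 0.33 in *cyc8* that did not pass (0.0713).

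Cytochrome c, the mobile carrier between complexes III and IV, was a member through its main gene. *CYC1*, which encodes iso-1-cytochrome c, had 38.5, 46.2 and 51.2 CPM in *tup1*, 60.4, 35.9 and 37.5 CPM in *cyc8* and 64.9, 41.8 and 50.4 CPM in *tup1 cyc8*, against 13.4, 14.5 and 32.1 CPM in wt. The 3 mutants shared 1 range and all 9 of their libraries were above wt, the nearest being *cyc8* replicate 2 beside wt replicate 3. *CYC1* rose by 1.40 ± 0.33 in *tup1 cyc8* (log2 ± SE, edgeR adjusted p 0.00824), and its 1.16 ± 0.31 in *tup1* and 1.16 ± 0.36 in *cyc8* missed the limit (0.0262 and 0.0372). Without wt replicate 3 it passed in all 3, at 1.70, 1.68 and 1.92.

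Complex IV, cytochrome c oxidase, had all 8 members called in *cyc8*, each at least 2-fold, all 8 in *tup1 cyc8*, 7 of them at least 2-fold, and *COX4* alone in *tup1*. Its 3 large catalytic subunits are encoded by mitochondrial DNA and were not analysed here.

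*COX9*, a small subunit and the most abundant complex IV member per kilobase (1857 CPM per kilobase in *cyc8* and 421 in wt), had 132, 126 and 106 CPM in *tup1*, 321, 362 and 320.3 CPM in *cyc8* and 328, 229.6 and 215 CPM in *tup1 cyc8*, against 70.4, 64.3 and 92.8 CPM in wt. No *cyc8* library overlapped a *tup1* library, and those of *tup1 cyc8* lay between except replicate 1, which was inside the *cyc8* range. *COX9* rose by 2.14 ± 0.16 in *cyc8* and 1.77 ± 0.20 in *tup1 cyc8* (log2 ± SE, edgeR adjusted p 5.84e-05 and 0.000181), and its 0.66 ± 0.15 in *tup1* did not pass (0.0154).

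*COX5A*, subunit Va, the form used in air, had 128, 113 and 107 CPM in *tup1*, 251, 297 and 282 CPM in *cyc8* and 259.8, 167 and 188 CPM in *tup1 cyc8*, against 80.99, 81.5 and 102 CPM in wt. *COX4*, subunit IV, had 51.05, 63.04 and 60.1 CPM in *tup1*, 116, 78.9 and 84.1 CPM in *cyc8* and 96.6, 82.99 and 89.7 CPM in *tup1 cyc8*, against 20.9, 21.4 and 37.6 CPM in wt. For both genes the groups were ordered wt, *tup1* and then the other mutants, with no overlap. *COX5A* rose by 1.65 ± 0.14 in *cyc8* and 1.23 ± 0.18 in *tup1 cyc8* and stood at 0.38 ± 0.12 in *tup1* (0.0582), while *COX4* rose by 1.11 ± 0.22, 1.80 ± 0.27 and 1.76 ± 0.22 in *tup1*, *cyc8* and *tup1 cyc8*.

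*COX13*, subunit VIa, had 59.9, 71.04 and 69.95 CPM in *tup1*, 128, 149 and 154 CPM in *cyc8* and 115, 98.9 and 87.6 CPM in *tup1 cyc8*, against 43.4, 42.97 and 56.2 CPM in wt. *COX12*, subunit VIb, had 21.4, 22.6 and 32.5 CPM in *tup1*, 36.97, 36.2 and 43.7 CPM in *cyc8* and 30.1, 29.7 and 28.5 CPM in *tup1 cyc8*, against 11.1, 13.9 and 17.6 CPM in wt. *COX8*, subunit VIII, had 76.4, 82.3 and 67.6 CPM in *tup1*, 153, 111 and 125 CPM in *cyc8* and 155, 115 and 114 CPM in *tup1 cyc8*, against 55.4, 55.6 and 58.8 CPM in wt. Each *cyc8* library exceeded each *tup1 cyc8* library for *COX13* and *COX12*, and the 2 strains overlapped for *COX8*. *COX13* rose by 1.60 ± 0.15 in *cyc8* and 1.09 ± 0.15 in *tup1 cyc8*, *COX12* by 1.46 ± 0.18 and 1.07 ± 0.16, and *COX8* by 1.20 ± 0.14 and 1.19 ± 0.14.

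*COX7*, subunit VII, had 15.5, 16.7 and 31.4 CPM in *tup1*, 37.3, 33.05 and 36.8 CPM in *cyc8* and 27.8, 19.7 and 22.6 CPM in *tup1 cyc8*, against 7.36, 10.3 and 14.1 CPM in wt. *COX6*, subunit VI, had 16.6, 20.7 and 26.1 CPM in *tup1*, 36.5, 30.5 and 30.2 CPM in *cyc8* and 27.97, 21.9 and 25.4 CPM in *tup1 cyc8*, against 13.4, 13.5 and 19.2 CPM in wt. In both genes *tup1* replicate 3 was higher than the other *tup1* libraries and lay above the lowest *tup1 cyc8* library, and the *cyc8* libraries were above all others. *COX7* rose by 1.76 ± 0.22 in *cyc8* and 1.16 ± 0.23 in *tup1 cyc8*, and *COX6* by 1.08 ± 0.17 and, less than 2-fold, by 0.72 ± 0.17.

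ATP synthase, which turns the proton gradient into ATP, had 10 of 11 members called in *cyc8*, each at least 2-fold, all 11 in *tup1 cyc8*, 9 of them at least 2-fold, and *ATP4* and *ATP7* in *tup1*. Its summed level was 2351 ± 123 CPM in *tup1*, 4100 ± 503 CPM in *cyc8* and 3842 ± 153 CPM in *tup1 cyc8*, against 1598 ± 254 CPM in wt (SD, n = 3 each). Every *cyc8* library was above every *tup1* library for 10 of the 11 genes, the exception being *ATP20*.

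The catalytic F1 part was represented by 5 genes. *ATP2*, the catalytic beta subunit, had 946, 1086 and 1019 CPM in *tup1*, 1996, 1788 and 1793 CPM in *cyc8* and 1837, 1806 and 1787 CPM in *tup1 cyc8*, against 598, 624 and 803 CPM in wt. *ATP1*, the alpha subunit, had 425, 451 and 502 CPM in *tup1*, 870, 600 and 678 CPM in *cyc8* and 782, 644 and 656 CPM in *tup1 cyc8*, against 267, 306 and 384 CPM in wt. The *cyc8* and *tup1 cyc8* libraries of *ATP2* formed 1 range far above wt, with the *tup1* libraries between, and *ATP1* had the same order. *ATP2* rose by 1.46 ± 0.15 and 1.43 ± 0.14 and *ATP1* by 1.17 ± 0.19 and 1.13 ± 0.15 in *cyc8* and *tup1 cyc8* (log2 ± SE), and neither passed in *tup1* (0.0157 and 0.0357).

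*ATP3*, the gamma subunit of the central stalk, had 102, 111 and 115 CPM in *tup1*, 226, 183 and 196 CPM in *cyc8* and 159.7, 169 and 155 CPM in *tup1 cyc8*, against 73.7, 70.6 and 98.9 CPM in wt. *ATP16*, the delta subunit, had 113, 116 and 124 CPM in *tup1*, 231, 161 and 173 CPM in *cyc8* and 179, 160.2 and 153 CPM in *tup1 cyc8*, against 62.9, 64.9 and 90.7 CPM in wt. *ATP15*, the epsilon subunit, had 141, 148 and 127 CPM in *tup1*, 292, 208 and 216 CPM in *cyc8* and 276, 229.6 and 220.5 CPM in *tup1 cyc8*, against 82.6, 83.98 and 110.2 CPM in wt. In these 3 genes *cyc8* replicate 1 was the highest of all 12 libraries, and no *tup1* library reached a *cyc8* or *tup1 cyc8* library. The increases in *cyc8* were 1.31 ± 0.16, 1.37 ± 0.20 and 1.37 ± 0.18 for *ATP3*, *ATP16* and *ATP15*, and those in *tup1 cyc8* 1.00 ± 0.14, 1.18 ± 0.15 and 1.40 ± 0.15. 

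*ATP5*, the subunit that links F1 to the peripheral stalk (OSCP), had 82.6, 105 and 113 CPM in *tup1*, 182, 133 and 160.4 CPM in *cyc8* and 150.4, 141 and 144 CPM in *tup1 cyc8*, against 61.95, 69.5 and 80.4 CPM in wt. *ATP4*, subunit b of that stalk, had 85.4, 88.2 and 96.1 CPM in *tup1*, 178, 124 and 128 CPM in *cyc8* and 116, 122 and 114 CPM in *tup1 cyc8*, against 54.8, 55.04 and 70.1 CPM in wt. *ATP7*, subunit d, had 108, 111 and 104 CPM in *tup1*, 216, 167 and 175 CPM in *cyc8* and 177, 167 and 174 CPM in *tup1 cyc8*, against 60.6, 64.5 and 81.4 CPM in wt. Each had its *tup1* libraries above wt and below the other mutants. *ATP4* and *ATP7* rose by 0.56 ± 0.12 and 0.63 ± 0.12 in *tup1* (adjusted p 0.00995 and 0.00705 by edgeR), less than 2-fold, and by 1.26 ± 0.18 and 1.43 ± 0.16 in *cyc8*, and *ATP5* rose by 1.17 ± 0.16 in *cyc8* and 1.05 ± 0.12 in *tup1 cyc8*.

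*ATP14*, subunit h, had 128, 122 and 100.1 CPM in *tup1*, 296, 223 and 216 CPM in *cyc8* and 195, 215 and 201 CPM in *tup1 cyc8*, against 96.05, 94.7 and 97.3 CPM in wt. *ATP17*, subunit f of the membrane part, had 58.1, 67.1 and 77.8 CPM in *tup1*, 139.8, 118 and 132 CPM in *cyc8* and 114, 95.7 and 102 CPM in *tup1 cyc8*, against 38.1, 42.7 and 50.1 CPM in wt. For *ATP14* wt replicate 3 was like the other wt libraries and the *tup1* libraries were only slightly above them, and for *ATP17* the 4 strains were separate. *ATP14* rose by 1.35 ± 0.15 in *cyc8* and 1.10 ± 0.09 in *tup1 cyc8*, beside a value of 0.26 ± 0.11 in *tup1* (0.135), and *ATP17* rose by 1.58 ± 0.14 and 1.27 ± 0.13. *ATP20*, subunit g, which takes part in dimer formation, rose by 0.68 ± 0.13 in *tup1 cyc8* and stood at 0.94 ± 0.23 in *cyc8* (0.016).

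The phosphate carrier *MIR1*, which brings phosphate into the matrix for ATP synthesis, had the smallest adjusted p of the members between the single mutants. *MIR1* had 209.5, 208 and 211 CPM in *tup1*, 512, 521 and 535 CPM in *cyc8* and 395, 420.4 and 416 CPM in *tup1 cyc8*, against 183, 198 and 192 CPM in wt. The *tup1* libraries were just above wt, the libraries of the other mutants were far above both and did not overlap each other, and no library of any strain stood apart. *MIR1* rose by 1.46 ± 0.11 in *cyc8* and 1.12 ± 0.09 in *tup1 cyc8* (log2 ± SE, edgeR adjusted p 4.23e-05 and 3.29e-05), and its 0.11 ± 0.09 in *tup1* did not pass (0.379) and was -0.01 with library sizes alone.

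For comparisons between mutants, 1 fit held all 12 libraries. In *cyc8* against *tup1*, 22 of the 48 members were higher and none lower, where 9.77% of all genes tested were higher and 5% lower, and 6 were at least 2-fold higher (4.65% of all), *COX9* (1.46 ± 0.18), *QCR10* (1.36 ± 0.26), *MIR1* (1.32 ± 0.09), *COX5A* (1.25 ± 0.16), *COX13* (1.10 ± 0.14) and *ATP14* (1.07 ± 0.14, log2 ± SE). The 22 held 9 subunits of ATP synthase, 6 of complex III, 4 of complex IV, 2 of complex II and *MIR1*, and no TCA cycle enzyme, NADH dehydrogenase or cytochrome c. The adjusted p was 1.06e-06 for *MIR1* and 0.000115 for *COX9* (edgeR). The TCA cycle genes *IDH1*, *IDH2*, *ACO1* and *LSC1* had negative values, -0.44, -0.68, -0.43 and -0.19, as did *CYC1* at -0.02, and none of these passed. The number called was 11 without *tup1* replicate 1, 12 without *tup1* replicate 2, 13 without *tup1* replicate 3, 14 without *cyc8* replicate 3, and 9 with library sizes alone. DESeq2 called 29 higher and 0 lower, and at an unadjusted p of 0.05 the edgeR test had 34 higher and 1 lower. Every *cyc8* library lay above every *tup1* library for 34 of the 48 members (21.6% of all genes tested). They lay entirely below for 1 member, *IDH2* (1165 of all 5995 genes tested). Without *cyc8* replicate 1, 1 member was lower.

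In *tup1 cyc8* against *tup1*, 18 members were higher and none lower, where 9.26% of all genes tested were higher and 4.62% lower, and 4 were at least 2-fold higher (4.95% of all), *QCR10* (1.16 ± 0.26), *NDI1* (1.13 ± 0.18), *SDH2* (1.10 ± 0.21) and *COX9* (1.08 ± 0.18). With the replicate number as a block in a fit of the 6 libraries of these strains, a fit chosen after seeing the data, 28 were higher. The share of all genes called in that fit is not given here. Deviations of same-numbered libraries correlated at 0.189, 0.334 and 0.222 in this pair of strains. Between *tup1* and wt the correlations were 0.344, -0.14 and 0.241. Of the members called in *cyc8* against *tup1*, 16 were also called here, and both comparisons use the same *tup1* libraries. The number called was 7 without *tup1* replicate 1, *tup1* replicate 3 or *tup1 cyc8* replicate 1, 9 without *tup1* replicate 2, 10 without *tup1 cyc8* replicate 3, and 6 with library sizes alone. DESeq2 called 23 higher and 0 lower, and at an unadjusted p of 0.05 the edgeR test had 36 higher and 0 lower. Every *tup1 cyc8* library lay above every *tup1* library for 36 members (27% of all genes tested). They lay entirely below for 1 member, *IDH2* (1379 of all 5995 genes tested).

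In *tup1 cyc8* against *cyc8*, 0 of the 48 members passed in either direction by edgeR, where 3.09% of all genes tested were higher (2.19% at least 2-fold) and 0.801% lower. At an unadjusted p of 0.05, 2 were higher and 9 lower, and DESeq2 called 0 higher and 2 lower. The median log2 difference was -0.06. The values with the smallest adjusted p were those of *MIR1*, -0.35 ± 0.09 (0.0273), and *COX13*, -0.51 ± 0.14 (0.0355), both lower in *tup1 cyc8*, and 1 member was lower without *cyc8* replicate 1 or without wt replicate 3. Every *tup1 cyc8* library lay above every *cyc8* library for 2 members (15.1% of all genes tested), *QCR9* and *NDI1*, and below every *cyc8* library for 10 (13.2%).

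Whether the *cyc8* deletion had the same effect with and without *TUP1* was tested gene by gene as the difference between *tup1 cyc8* over *tup1* and *cyc8* over wt. This difference was negative for 47 of the 48 members, with a median of -0.74 beside -0.03 over all genes tested, and 6 passed, all negative, where 6.79% of all genes tested were lower and 2.32% higher. Of the 6, 4 differed at least 2-fold (5.79% of all). The *CYC8* mRNA itself differed in this contrast, at -1.13 in *tup1 cyc8* over *tup1* and -4.47 in *cyc8* over wt (difference 3.34 ± 0.18, edgeR adjusted p 5.9e-08), so the 2 deletions did not leave the same *CYC8* signal, and its part in the differences was not tested. *LSC2* stood at -0.12 in *tup1 cyc8* over *tup1* and at 1.94 in *cyc8* over wt, a difference of -2.05 ± 0.29 (SE) with an edgeR adjusted p of 0.000281. *NDE1* followed at -1.31 ± 0.24, then *COX12* at -1.25 ± 0.25, *COX13* at -1.01 ± 0.20, *ATP17* at -0.95 ± 0.19 and *QCR9* at -0.91 ± 0.18, with adjusted p of 0.00194 to 0.00433. Among the alternatives to this fit (edgeR or DESeq2), the highest adjusted p was 0.0017 for *LSC2* and 0.0070 for *NDE1*. For *COX12*, *COX13*, *ATP17* and *QCR9* it was 0.0138, 0.0138, 0.0154 and 0.0129, outside the limit. At an unadjusted p of 0.05, 35 members were lower and 0 higher, and DESeq2 called 19 lower and 0 higher. The wt libraries enter this difference, and without wt replicate 3, 25 members were called (7.71% of all genes tested). The number was 2 without *cyc8* replicate 3, *tup1 cyc8* replicate 2, *tup1 cyc8* replicate 3, wt replicate 1 or wt replicate 2, and 3 without *tup1* replicate 2 or *tup1* replicate 3.

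**Figure D4:**
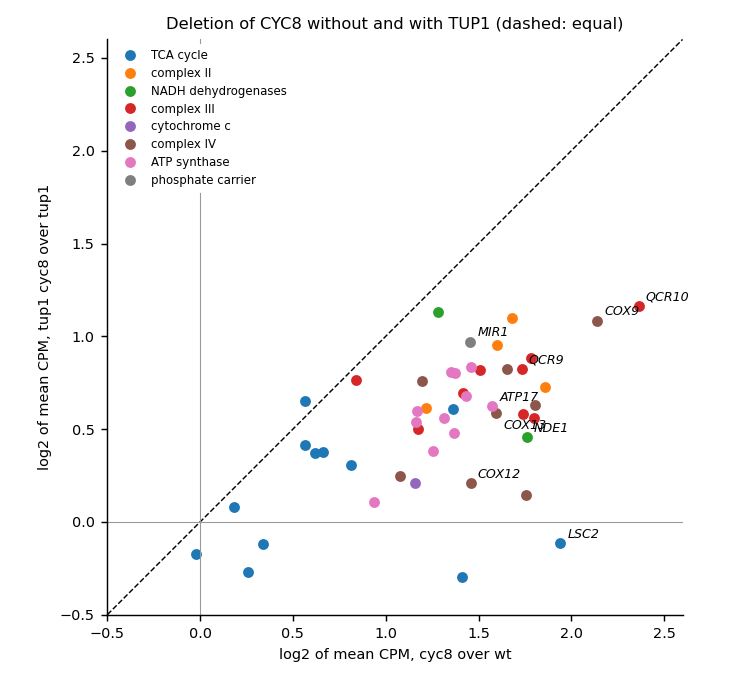
The log2 ratio of mean CPM of each of the 48 genes in *tup1 cyc8* over *tup1* (vertical axis) and in *cyc8* over wt (horizontal axis), coloured by group, with a dashed line where both are equal. Of the points, 47 lie below the line, at medians of 0.59 on the vertical and 1.37 on the horizontal axis, and *LSC2* lies lowest relative to it.

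Other genes of the pathway were taken from lists of isoforms and further subunits (25 genes), regulators (10), carbon and electron entry (10) and assembly factors (51), all tested. Of the isoforms and further subunits, 4 rose and 2 fell in *tup1*, 10 rose and 1 fell in *cyc8*, and 15 rose and 1 fell in *tup1 cyc8*. As shares these rises were 16%, 40% and 60%, beside 10.5%, 16.3% and 21% of all genes tested. In *tup1*, 7 of them rose when wt replicate 3 was left out. Of the regulators, 1 (10%) rose and 1 fell in *tup1* and 2 (20%) rose in each of *cyc8* and *tup1 cyc8*, and without wt replicate 3, 3 rose in each mutant. Of the carbon and electron entry genes, 3 rose in *tup1* (30%) and 4 (40%) in each of *cyc8* and *tup1 cyc8*. The assembly factors act in the maturation of the complexes or in the translation of mitochondrially encoded subunits. Of these, 1 rose and 1 fell in *tup1*, 5 rose in *cyc8*, and 7 rose and 3 fell in the double mutant, with median log2 fold changes of 0.01, -0.17 and 0.05. The rises were 1.96%, 9.8% and 13.7% of the list, below the shares of all genes. Without *cyc8* replicate 1, 14 fell in *cyc8* (17.6% of all genes tested), and with library sizes alone 3, 13 and 22 fell in the 3 mutants (6.21%, 27.2% and 49.8%) and the medians were -0.12, -0.52 and -0.42. Among assembly factors *CYC3*, which attaches haem to cytochrome c, rose by 2.17 ± 0.21 in *cyc8* and 1.77 ± 0.15 in *tup1 cyc8*, and *COA2*, a factor for complex IV, by 0.93 ± 0.11, 1.68 ± 0.14 and 1.59 ± 0.16 in *tup1*, *cyc8* and *tup1 cyc8*. *COA6* (1.31 ± 0.14 in *cyc8*), *COX19* (1.37 ± 0.15) and *COX20* (1.00 ± 0.18 in *tup1 cyc8*), further factors for complex IV, also rose at least 2-fold.

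Some of these genes stand in for a member or act on one. *CYC7*, iso-2-cytochrome c, known as the form made at low oxygen, had 55.3, 55.5 and 74.6 CPM in *tup1*, 43.2, 61.5 and 59.5 CPM in *cyc8* and 73.3, 74.7 and 65.96 CPM in *tup1 cyc8*, against 2.02, 1.17 and 3.31 CPM in wt. The lowest mutant library, *cyc8* replicate 1, was far above the highest wt library, replicate 3. *CYC7* rose by 4.80 ± 0.29, 4.65 ± 0.33 and 5.04 ± 0.27 in *tup1*, *cyc8* and *tup1 cyc8* (log2 ± SE), with edgeR adjusted p of 6.17e-06, 3.86e-05 and 2.37e-06. Per kilobase, the *CYC7* level was 1.39, 1.16 and 1.41 times that of *CYC1* in *tup1* libraries, 0.69, 1.66 and 1.53 times in *cyc8* libraries and 1.09, 1.73 and 1.26 times in *tup1 cyc8* libraries, against 0.146, 0.0782 and 0.0997 times in wt. The *CYC7* mRNA was thus the more abundant of the pair in 8 of the 9 mutant libraries and the less abundant in the wt libraries.

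*COX5B*, subunit Vb, the low-oxygen form of *COX5A*, had 66.04, 68.7 and 68.5 CPM in *tup1*, 71.1, 71.7 and 69.1 CPM in *cyc8* and 80.1, 88.1 and 78.8 CPM in *tup1 cyc8*, against 23.7, 20.7 and 49.7 CPM in wt. Its mutant libraries were all above wt, and wt replicate 3 was far above the other wt libraries. *COX5B* rose by 1.40 ± 0.30 in *tup1 cyc8* and stood at 1.09 ± 0.29 in *tup1* and 1.17 ± 0.31 in *cyc8*, which did not pass (0.0272 and 0.0205). Per kilobase the *COX5B* level relative to *COX5A* was 0.52, 0.61 and 0.65 in *tup1*, 0.29, 0.24 and 0.25 in *cyc8* and 0.31, 0.53 and 0.42 in *tup1 cyc8*, against 0.30, 0.26 and 0.50 in wt. *COX5A* thus stayed the more abundant form in all 12 libraries, and the *tup1* ratios lay above those of every other library except that of *tup1 cyc8* replicate 2.

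*INH1*, an inhibitor of ATP hydrolysis by ATP synthase, had 101, 88.1 and 77.8 CPM in *tup1*, 265, 229.6 and 222 CPM in *cyc8* and 252, 175 and 207 CPM in *tup1 cyc8*, against 6.63, 3.97 and 25.2 CPM in wt. Each mutant library was above each wt library, of which replicate 3 was the highest. *INH1* rose by 2.88 ± 0.56, 4.32 ± 0.65 and 4.16 ± 0.61 in *tup1*, *cyc8* and *tup1 cyc8*, and its level per kilobase relative to the catalytic subunit *ATP2* was 0.524 ± 0.0971, 0.764 ± 0.0276 and 0.695 ± 0.12 in these strains and 0.0969 ± 0.0792 in wt (SD, n = 3 each). When wt replicate 3 was left out the wt mean was 5.30 CPM, against 11.9 CPM with it, and the changes of *INH1* were 4.06, 5.49 and 5.33. *STF1*, a related inhibitor, rose by 2.00 ± 0.43 in *tup1 cyc8* (2.81 without wt replicate 3, when it also passed in *tup1* at 2.26 and *cyc8* at 2.34), and *ATP19*, a small ATP synthase subunit, rose by 1.61 ± 0.28 in *cyc8* and 1.29 ± 0.15 in *tup1 cyc8*.

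The ADP/ATP carriers exchange the product of ATP synthase with the cytosol. *PET9*, the main carrier in air, had 289.7, 306 and 345 CPM in *tup1*, 844, 733 and 673 CPM in *cyc8* and 684, 607 and 626 CPM in *tup1 cyc8*, against 139, 145 and 246 CPM in wt. *AAC1*, a minor carrier, had 5.53, 6.92 and 5.21 CPM in *tup1*, 19.2, 30.1 and 28.9 CPM in *cyc8* and 17.95, 21.4 and 16.04 CPM in *tup1 cyc8*, against 7.08, 6.71 and 7.39 CPM in wt. *AAC3*, the low-oxygen carrier, had 19.6, 18.4 and 24.7 CPM in *tup1*, 22.5, 22.6 and 25.5 CPM in *cyc8* and 40.99, 24.8 and 34.5 CPM in *tup1 cyc8*, against 9.44, 10.5 and 7.23 CPM in wt. The *AAC1* level in *tup1* was near or below that of wt, 1 library lying inside the wt range, and high in *cyc8* and *tup1 cyc8*, whereas *AAC3* was above wt in all mutants. *PET9* rose by 2.09 ± 0.24 in *cyc8* and 1.87 ± 0.22 in *tup1 cyc8*, *AAC1* by 1.88 ± 0.19 and 1.40 ± 0.14, and *AAC3* by 1.19 ± 0.17, 1.38 ± 0.16 and 1.89 ± 0.21 in *tup1*, *cyc8* and *tup1 cyc8*. Between *cyc8* and *tup1*, *AAC1* differed by 2.14 ± 0.19 and *PET9* by 1.26 ± 0.19 (log2 ± SE, edgeR adjusted p 7.34e-06 and 0.000605).

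**Figure D5:**
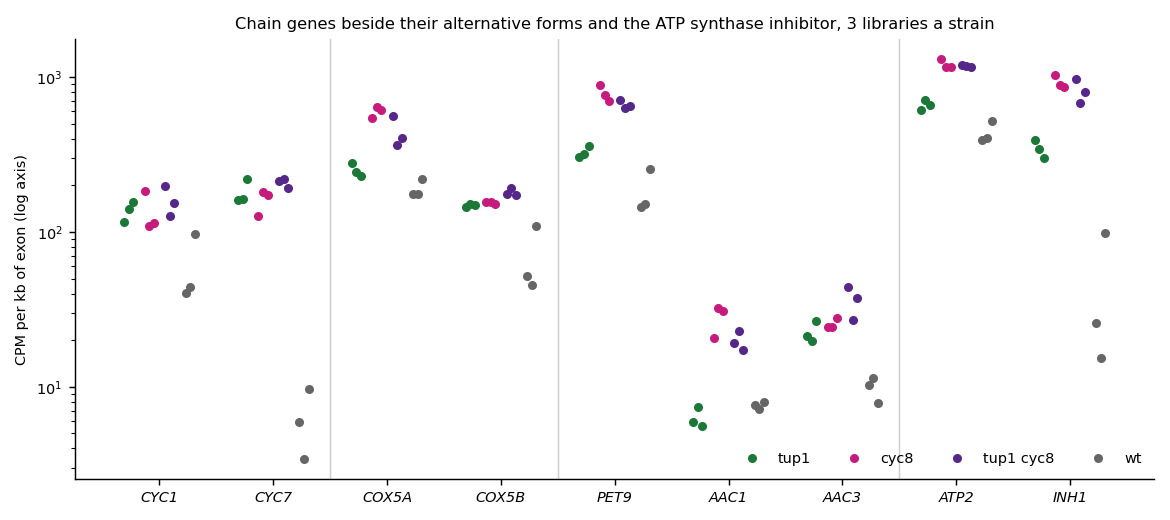
CPM per kilobase of exon (log axis) of *CYC1*, *COX5A*, *PET9* and *ATP2* and of the genes that stand beside them, in the 3 libraries of *tup1*, *cyc8*, *tup1 cyc8* and wt from left to right within each gene. *CYC7* averaged 181, 160.1 and 208.5 CPM per kilobase in *tup1*, *cyc8* and *tup1 cyc8* and 6.345 in wt, while *AAC1* averaged 6.33 in *tup1*, below the 28.01 of *cyc8* and the 19.8 of *tup1 cyc8*.

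Further genes of these lists changed at least 2-fold. *COX26*, a small protein of the respiratory supercomplex, rose by 5.16 ± 0.34, 4.67 ± 0.63 and 5.16 ± 0.31 in *tup1*, *cyc8* and *tup1 cyc8*, with 22.8 to 32.3 CPM on average in the mutants and 0.88 CPM in wt. *MPC3*, a subunit of the mitochondrial pyruvate carrier known from respiratory growth, rose by 4.24 ± 0.40, 5.04 ± 0.53 and 4.33 ± 0.42. Leaving out wt replicate 3 gave 5.83, 5.32 and 5.81 for *COX26* and, for *MPC3*, 4.86, 5.64 and 4.93. *NDE2*, the second external NADH dehydrogenase, rose by 1.49 ± 0.15 in *cyc8* and 1.78 ± 0.26 in *tup1 cyc8*. *GUT2*, the mitochondrial glycerol-3-phosphate dehydrogenase, rose by 2.18 ± 0.26 and 1.92 ± 0.28 there, and *CYB2*, a lactate dehydrogenase that passes electrons to cytochrome c, by 1.11 ± 0.14 in *tup1* and 1.62 ± 0.12 in *tup1 cyc8*. *PIC2*, a second phosphate carrier, rose by 1.72 ± 0.29 in *tup1 cyc8*, as did YJL045W, a close relative of *SDH1*, by 1.26 ± 0.18. The mean level of YJL045W was 12.5 CPM there and 5.28 CPM in wt. It was highest in *cyc8*, at 21.3 CPM, where the libraries were uneven (6.85, 28.8 and 28.1 CPM). *CIT2*, the peroxisomal citrate synthase, fell by 1.32 in *tup1* and by 1.58 in *tup1 cyc8* on the log2 scale, and in *cyc8* its -1.09 did not pass (0.0524).

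Among the regulators, *HAP4*, which encodes the activating and limiting subunit of the Hap complex, rose in *cyc8* and *tup1 cyc8*. *HAP4* had 108, 107 and 139 CPM in *tup1*, 187, 186 and 185 CPM in *cyc8* and 263, 189.5 and 172 CPM in *tup1 cyc8*, against 67.5, 56.8 and 104 CPM in wt. All *cyc8* and *tup1 cyc8* libraries were above the *tup1* libraries, and the *tup1* libraries were above wt replicate 3, the highest wt library. It rose by 1.29 ± 0.22 in *cyc8* and 1.46 ± 0.24 in *tup1 cyc8* (log2 ± SE, edgeR adjusted p 0.00298 and 0.00163), and its 0.61 ± 0.22 in *tup1* did not pass (0.0772). The DNA-binding subunit genes *HAP2*, *HAP3* and *HAP5* had log2 fold changes between -0.32 and 0.19 in the 3 mutants and none passed. *HAP1*, a haem-dependent activator of *CYC1* and *CYC7* that is impaired by a transposon insertion in the S288c background, fell by 0.86 in *tup1* (adjusted p 0.00231) and had -0.05 in *cyc8* and -0.06 in *tup1 cyc8*. *ROX1*, the repressor of the low-oxygen genes, which itself acts through Tup1-Cyc8, rose by 2.29 ± 0.17 in *cyc8* and 1.58 ± 0.18 in *tup1 cyc8* and, less than 2-fold, by 0.84 ± 0.14 in *tup1*.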

How the data were processed

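RNA-seq libraries were made from rRNA-depleted RNA with a strand-specific kit. Per the labels and the methods, the authors trimmed reads with Trimmomatic 0.36, mapped them with STAR 2.5.2b to the S288c genome from Ensembl, whose release is not given in the sources used here, and counted reads per gene with featureCounts of Subread 1.5.2. The deposited raw counts are whole numbers without normalisation. Normalised tables by the authors, with 18 columns of single samples, were not used. The same wt libraries stand in each of the 3 count tables. A line without a gene name, 0.0647% to 0.34% of a library's counts, was left out, and the library totals of 12643361 to 17898833 counts set the precision. Of 6400 names, 6082 matched the R64 annotation.

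Genes were filtered with filterByExpr, scaled by TMM and tested with edgeR's quasi-likelihood test (R 4.3.3, edgeR 4.0.16, limma 3.58.1), each mutant against wt using the 6 libraries of both strains, and mutants with each other and the difference between *tup1 cyc8* over *tup1* and *cyc8* over wt in a fit of 12. P-values were adjusted over all genes tested, and the limit was 0.01. The test was checked on simulated counts with the same dispersion for all genes, as many rises as falls and no library that stood apart. That check does not cover libraries that stand apart or one-sided changes. Alternatives were DESeq2 1.42.0, RLE scaling, library sizes alone, other filters, a limit of 0.05, fits of other sets of libraries, a replicate block, and leaving out each library. A 6-library fit with the block, and leaving out both libraries that stood apart (wt replicate 3 and *cyc8* replicate 1), were chosen after seeing the data. Deviations from the strain means of same-numbered libraries correlated at 0.189, 0.334 and 0.222 between *tup1* and *tup1 cyc8*, and no other pair of strains had all 3 correlations over 0.1.

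The members, gene lists and tests were chosen with earlier results of these data known. Values in every library are given for members past both limits (adjusted p of 0.01 and 2-fold) in a comparison with wt, for the 3 largest changes, and for the most abundant member of each complex per kilobase. The isoform genes *CYC7*, *COX5B*, *AAC1* and *AAC3* and *HAP1* to *HAP5* are named whatever they did, and *INH1*, *PET9* and *HAP4* were given values in every library after these were seen. The 8 mitochondrially encoded genes of the lists were not analysed here. Tables and figures were made with Python 3.11.15, numpy 2.4.6, pandas 2.3.3 and matplotlib 3.10.9.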

Additional observations from a re-analysis of the deposited data

Results flagged for a closer look

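The difference between *tup1 cyc8* over *tup1* and *cyc8* over wt passed for 6 members in edgeR's test of the difference itself, at an adjusted p of 0.01 or lower over all genes tested. In this contrast 6.79% of all genes tested were lower, and 5.79% at least 2-fold lower. The number of members that passed also depended on the libraries kept, as given below. *LSC2* and *NDE1* stayed within the limit among the alternatives, while *COX12*, *COX13*, *ATP17* and *QCR9* did not pass in every one. The log2 value of *tup1 cyc8* over *tup1* minus that of *cyc8* over wt was -2.05 for *LSC2*, -1.31 for *NDE1*, -1.25 for *COX12*, -1.01 for *COX13*, -0.95 for *ATP17* and -0.91 for *QCR9*. For *NDE1* these were 0.45 in *tup1 cyc8* over *tup1* and 1.76 in *cyc8* over wt, and for *QCR9* 0.82 and 1.73. Per counts in named genes, *CYC8* mRNA was at 30.5% to 35.2% of wt in *tup1 cyc8* libraries. In *cyc8* libraries it was at 3.27% to 3.72%. With TMM factors, as used for the differences, its fold over wt was 0.451 in *tup1 cyc8* and 0.0451 in *cyc8*. The part of *CYC8* mRNA in these differences was not tested.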

How the results depend on the processing

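No member was lower than wt in any mutant by a passing test under the alternatives run. Most numbers below stand without the share of all genes called under that setting. So do the DESeq2, unadjusted, leave-one-out and replicate-block numbers above, and those between mutants with library sizes alone. They describe how the number of members called depends on the setting, and not how members differ from other genes. The number of members higher in *tup1* than in wt, 7, was 30 by DESeq2, 3 with library sizes alone, 15 with a replicate block, 13 in the fit of all 12 libraries and 32 at a limit of 0.05, and 2 to 38 when 1 library was left out. In *cyc8* against *tup1* the number higher, 22, was 9 with library sizes alone and 7 in the 6-library fit with the replicate block, where the numbers do not pair the samples, and 11 to 28 when 1 library was left out (lower, 0 to 1). In *tup1 cyc8* against *tup1* the number higher, 18, was 6 with library sizes alone, 28 in the 6-library fit with the replicate block, 28 at a limit of 0.05 and 7 to 23 when 1 library was left out. In *tup1 cyc8* against *cyc8*, 2 were lower by DESeq2 and 2 at a limit of 0.05, and 0 to 1 when 1 library was left out. The number of negative differences between *tup1 cyc8* over *tup1* and *cyc8* over wt, 6, was 19 by DESeq2, 22 at a limit of 0.05 and 2 to 25 when 1 library was left out. Without both libraries that stood apart, a choice made after seeing the data, 4 members were lower in *cyc8* than in *tup1*, 35 higher in *tup1 cyc8* than in *tup1*, 3 higher and 3 lower in *tup1 cyc8* than in *cyc8*, and 29 had negative differences.

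With library sizes alone, the log2 ratio of summed levels to wt in *tup1*, *cyc8* and *tup1 cyc8* was 1.02, 1.34 and 1.24 for the NADH dehydrogenases and -0.006, 1.10 and 0.64 for the phosphate carrier. In *cyc8* it was 1.34 for complex IV and 1.02 for ATP synthase. In *tup1 cyc8* it was 0.47 for the TCA cycle, 1.10 for complex II, 1.05 for complex III, 0.90 for complex IV and 0.80 for ATP synthase. For cytochrome c in *tup1* it ran from 0.96 to 1.70 when 1 library was left out, the highest without wt replicate 3. Values that turned in sign were not called in either case. With library sizes alone these were *MIR1* in *tup1* (-0.0061), *IDH2* (-0.062), *LPD1* (-0.0036) and *LSC1* (-0.16) in *cyc8*, and *IDH1* (-0.21), *LPD1* (-0.33) and *LSC1* (-0.015) in *tup1 cyc8*. When 1 library was left out, *IDH1* in *cyc8* ran from -0.42 to 0.38 (0.0107 without both libraries that stood apart), *IDH2* from -0.22 to 0.66 and *LSC1* from -0.0197 to 0.41. The cause of these shifts was not tested. With 3 libraries a strain, a change within the spread of the wt libraries was not detectable.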
